A study of Mus musculus with 4 samples.

Results

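The heat shock proteins and DNAJ co-chaperones of cultured mouse podocytes were described in 4 RNA-seq libraries. The members were chosen by name, with earlier results of these data known. They were protein-coding genes whose symbols begin with Dnaj or Hsp90, those named Hspa or Hspb with a number, and Hspd1, Hspe1, Hsph1 and Hsf1. They numbered 73 of the 56393 genes in the count table, and 63 of them reached the minimum used here, a mean of 50 count units over the 4 libraries, as did 14187 genes in all. Podocytes are the epithelial cells that cover the glomerular capillaries of the kidney. All 4 groups were cultures of MPC, a conditionally immortalised mouse podocyte line that grows at 33 °C with interferon-gamma, followed by 7 days of differentiation at 37 °C in its absence. The sh-JAML/HG cells carried a hairpin against Jaml, a junctional adhesion molecule-like gene, and were kept for 24 h in medium with D-glucose at 40 mmol/L. The sh-JAML cells carried the same hairpin without the added glucose. The sh-NC/HG cells carried a control hairpin and had the same glucose, and the sh-NC cells carried the control hairpin without it. The labels mention no osmotic control. The series' title places the study in diabetic kidney disease and podocyte lipid metabolism, and the comparisons ask what high glucose and the Jaml hairpin do to expression.

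Each group had 1 library, so a pair of libraries has no replicate spread and is described without a test. The submitters' design text mentions 4 samples with high glucose and 4 without, whereas 4 libraries in all were analysed here. The columns of the control cells name no hairpin, and their names were matched to the sh-NC/HG and sh-NC labels. Jaml itself had 0 counts in all 4 libraries, so the knockdown could not be measured. A zero count still leaves room for 0.142 CPM in the sh-JAML/HG library, 0.150 in sh-JAML, 0.129 in sh-NC/HG and 0.151 in sh-NC (3 fragments). Library totals were between 79330461 and 94341975 count units, of which 4 were taken as 1 sequenced fragment. The defining podocyte gene Nphs1 (nephrin) was near 0, at 0.193 to 0.441 CPM, while Synpo (synaptopodin) was at 172 to 247 CPM. Of 10 leukocyte markers, 3 passed the minimum and summed levels were 58.2 to 68.8 CPM, nearly all from Csf1r (50.1 to 62.2), while Ptprc was at most 0.315 CPM. Of 9 endothelial markers, 2 passed (Eng and Flt1), with sums of 4.38 to 7.34 CPM, and Kdr and Tie1 were at 0. Of 14 tubule markers, 4 passed, and the list summed to 852 CPM in sh-JAML/HG, 1078 in sh-JAML, 1335 in sh-NC/HG and 1055 in sh-NC cells. Cdh16, Lrp2 and Pax8 made up most of that sum, and Slc34a1 and Umod were at 0. Cdh16 and Lrp2 were highest in sh-NC/HG cells and Pax8 was lowest there. That library differed from the other 3 in RNA composition. Its 13 mitochondrially encoded mRNAs summed to 13442 CPM, against 21243 in sh-JAML/HG, 20565 in sh-JAML and 19806 in sh-NC cells. Its histone mRNAs were the lowest too, at a summed 189 CPM, against 268 in sh-JAML/HG, 317 in sh-JAML and 368 in sh-NC cells.

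Heat shock proteins are molecular chaperones that bind unfolded proteins. Members of the Hsp70 family bind and release clients in a cycle driven by ATP, in which DNAJ proteins deliver the client and stimulate hydrolysis through their J domain, and Hsp110 proteins exchange the nucleotide. Hsp90 acts later, on clients such as kinases and steroid receptors, and the mitochondrial chaperonin Hspd1 with its lid Hspe1 encloses imported proteins. Hsf1 is the transcription factor that induces the cytosolic set when unfolded proteins build up, whereas the endoplasmic reticulum (ER) set is induced by the unfolded protein response. Podocytes are long-lived cells with a large secretory and cytoskeletal load, and the ER branch has been studied in them under diabetic conditions.

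The members were dominated by a few chaperones of the cytosol and the ER. Levels were CPM after TMM scaling, which applies a single factor to each library to adjust for depth and average shifts. The RNA composition difference of the sh-NC/HG library described above remains in the scaled values. Summed over all 73, the scaled level was 7880 in sh-JAML/HG, 7786 in sh-JAML, 8570 in sh-NC/HG and 8378 in sh-NC cells. Cytosolic and nuclear partners of the Hsp70 and Hsp90 system made up 4349, 4347, 4891 and 4438 CPM of these in the same order, and ER members 1867, 1830, 2037 and 2272 CPM. Per kilobase of exon, the 5 highest members on the mean level over the 4 libraries were Hsp90ab1 (481 CPM per kilobase), Hsp90aa1 (189), Hspa8 (155), Hsp90b1 (134) and Hspa5 (117). The lowest of the 63 was Dnajc22, at 0.356 CPM per kilobase. The cytosolic sum was highest in sh-NC/HG cells and the ER sum was highest in sh-NC cells.

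**Figure D1:**
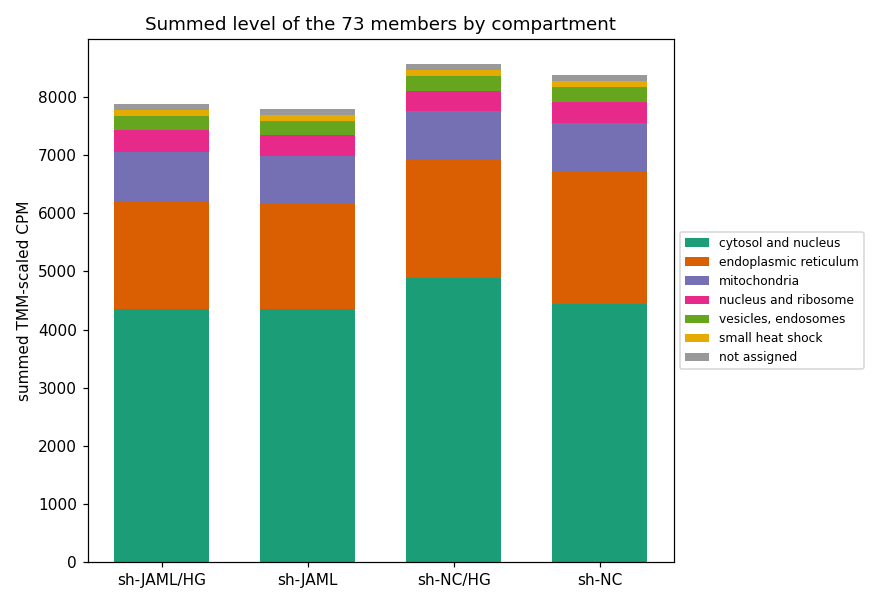
Summed TMM-scaled CPM (y axis) of the 73 members in the 4 libraries (x axis), stacked by compartment, 1 library per bar. The totals run from 7786 CPM in sh-JAML to 8570 CPM in sh-NC/HG cells, and cytosol and ER hold most of each bar.

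**Figure D2:**
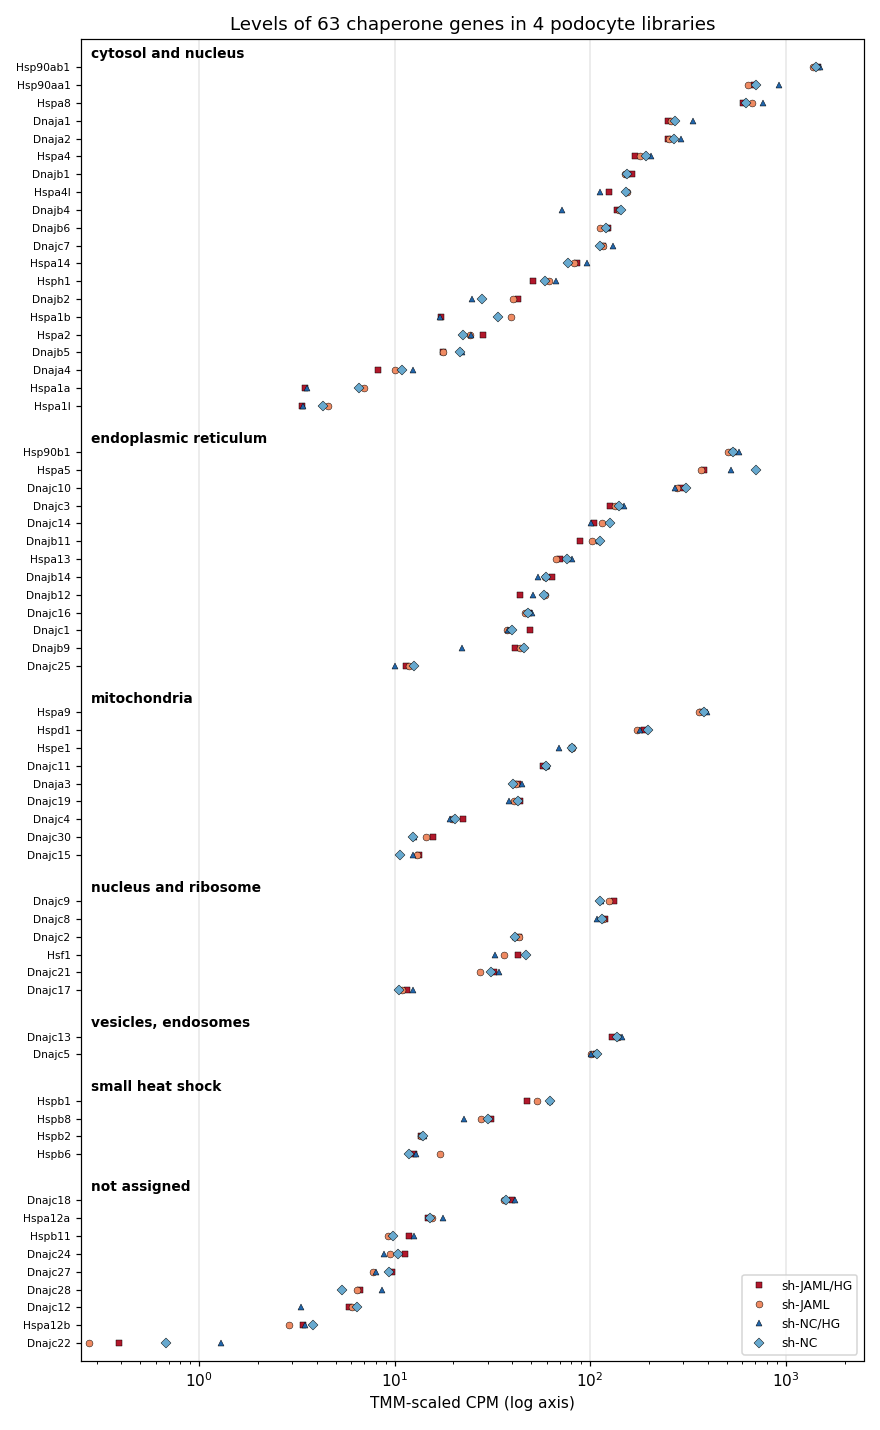
Level of each of the 63 members past the count minimum (rows, grouped by compartment) in each library (marker shape and colour), as TMM-scaled CPM on a log axis. For most members the 4 markers lie close together, and Dnajb4, Dnajb9, Hspa1b, Hspa1a, Hspa5 and Dnajc22 are among the rows where they separate.

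The stress-inducible Hsp70 genes Hspa1a and Hspa1b were lower in high glucose with both hairpins. Both lie on mouse chromosome 17 in the major histocompatibility complex, on the minus strand, Hspa1b at 34956436 to 34959238 and Hspa1a at 34969190 to 34972156 (mm10), 9951 bases apart. They encode near-identical cytosolic Hsp70 proteins that are low in unstressed cells and are textbook targets of Hsf1. The 250 bases before each start are shown because these genes were the only members at least 1.5-fold lower in both glucose pairs. The sequences are from RefSeq (GRCm38.p6, minus strand), at chr17:34959239-34959488 for Hspa1b and chr17:34972157-34972406 for Hspa1a, and capitals mark the heat shock element pair searched for:
Hspa1b: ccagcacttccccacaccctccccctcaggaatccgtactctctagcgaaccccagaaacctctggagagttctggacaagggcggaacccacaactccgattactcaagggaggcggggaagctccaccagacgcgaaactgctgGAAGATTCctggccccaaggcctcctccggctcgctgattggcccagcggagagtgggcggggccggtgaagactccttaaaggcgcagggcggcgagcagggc
Hspa1a: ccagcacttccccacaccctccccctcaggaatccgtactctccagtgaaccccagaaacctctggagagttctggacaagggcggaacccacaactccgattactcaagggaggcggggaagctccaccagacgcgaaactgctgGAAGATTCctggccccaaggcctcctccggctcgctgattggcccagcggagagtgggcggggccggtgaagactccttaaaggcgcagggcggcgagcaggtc
The windows of this pair differed at 3 of 250 positions, and both held the letters GAANNTTC at 104 to 97 bases before the start. Hspa1b stood at 17.3 CPM in sh-JAML/HG, 39.4 in sh-JAML, 17.1 in sh-NC/HG and 33.9 in sh-NC cells. Hspa1a stood at 3.50 CPM in sh-JAML/HG, 7.01 in sh-JAML, 3.58 in sh-NC/HG and 6.57 in sh-NC cells. Both genes were thus lower in the high glucose library of each hairpin. Of all genes past the minimum, 0.853% were at least 1.5-fold lower in both glucose pairs. In such bulk RNA, fewer cells expressing a gene and less RNA per cell cannot be told apart. For Hspa1b, sh-JAML/HG was 2.28-fold lower than sh-JAML (95% counting interval 2.01 to 2.58), and sh-NC/HG was 1.98-fold lower than sh-NC (1.75 to 2.25). For Hspa1a, the level was 2.0-fold lower with the Jaml hairpin (1.49 to 2.68) and 1.83-fold lower with the control hairpin (1.37 to 2.42). These intervals are exact (Clopper-Pearson) and cover counting error only. Between hairpins the pair of genes was close, with log2 ratios of 0.22 for Hspa1b and 0.09 for Hspa1a in sh-JAML over sh-NC, and 0.02 and -0.03 in sh-JAML/HG over sh-NC/HG. The copies are not independent, since 58.8% of the 50-base windows of the Hspa1a transcripts also occur in Hspa1b and 62.3% of those of Hspa1b occur in Hspa1a. Counts of either gene may include reads of the other.

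The third gene of that cluster, Hspa1l, a relative known mainly from testis, starts 547 bases from the Hspa1a start. It stood at 3.37 CPM in sh-JAML/HG, 4.57 in sh-JAML, 3.42 in sh-NC/HG and 4.33 in sh-NC cells, with log2 ratios of -0.44 for sh-JAML/HG over sh-JAML and -0.34 for sh-NC/HG over sh-NC. Of its transcript windows, 71.4% are shared with the overlapping gene model Gm10501, so its level is uncertain. Hspa8, the constitutive Hsc70 that also strips clathrin coats, stood at 603 CPM in sh-JAML/HG, 676 in sh-JAML, 769 in sh-NC/HG and 624 in sh-NC cells. It had opposite signs in the glucose pairs, with a log2 ratio of -0.16 with the Jaml hairpin and 0.30 with the control hairpin. Reads of Hspa8 may be shared with processed copies, since 39.4% of its windows occur in other genes. Hspa14, a ribosome-associated relative, was at 85.5 CPM in sh-JAML/HG, 83.0 in sh-JAML, 96.8 in sh-NC/HG and 77.5 in sh-NC cells. Hspa2, best known from spermatocytes, was at 28.4, 24.2, 24.7 and 22.4 CPM in the same order and was higher in the high glucose library of each hairpin.

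Among the Hsp110 nucleotide exchange factors, Hspa4l was lower in high glucose with both hairpins, by less than 1.5-fold. Hspa4l stood at 125 CPM in sh-JAML/HG, 155 in sh-JAML, 113 in sh-NC/HG and 153 in sh-NC cells, log2 ratios of -0.31 and -0.45 with the Jaml and the control hairpin. Hsph1 (Hsp105) stood at 50.8 CPM in sh-JAML/HG, 61.3 in sh-JAML, 66.9 in sh-NC/HG and 59.0 in sh-NC cells, so it was below its glucose-free library with the Jaml hairpin (log2 -0.27) and above it with the control hairpin (0.18). Hspa4 was at 169, 180, 205 and 192 CPM in the same order and ranged least among these 3 genes.

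The Hsp90 genes were among the 4 highest members per kilobase and varied little. Hsp90ab1, the constitutive cytosolic form, stood at 1459 CPM in sh-JAML/HG, 1373 in sh-JAML, 1505 in sh-NC/HG and 1428 in sh-NC cells. Hsp90aa1, the inducible form, stood at 692 CPM in sh-JAML/HG, 644 in sh-JAML, 922 in sh-NC/HG and 706 in sh-NC cells. The ER form Hsp90b1 (GRP94) stood at 541, 508, 575 and 536 CPM in the same order. All 3 had positive log2 ratios in both glucose pairs and negative ones in both hairpin pairs, under each of the 3 scalings run. The pairs share libraries, so these signs are not independent. Of the 12 ratios, 10 were within 0.13 of 0, and the exceptions were those of Hsp90aa1, 0.39 in sh-NC/HG over sh-NC and -0.41 in sh-JAML/HG over sh-NC/HG, both set by its high value in the sh-NC/HG library. Of the Hsp90aa1 windows, 41.8% are shared with the copy Gm12346.

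The cytosolic DNAJ partners split between members that were high and members that were low in the sh-NC/HG library. Dnaja1, an inducible co-chaperone of Hsc70, stood at 251 CPM in sh-JAML/HG, 260 in sh-JAML, 335 in sh-NC/HG and 272 in sh-NC cells. Dnaja2, the highest DNAJA gene per kilobase, was at 250, 252, 292 and 267 CPM in the same order. All 4 DNAJA genes, the mitochondrial Dnaja3 among them, had log2 ratios above 0 in sh-NC/HG over sh-NC, with a median of 0.17. They were below 0 in sh-JAML/HG over sh-NC/HG, with a median of -0.32. Both signs held under each of the 3 scalings, and both ratios use the sh-NC/HG library. Of all 14187 genes, 7121 were above 0 in the first pair and 7055 below 0 in the second. Dnaja4 was the lowest DNAJA gene, at 8.26 CPM in sh-JAML/HG, 10.0 in sh-JAML, 12.4 in sh-NC/HG and 10.9 in sh-NC cells. Its log2 ratio of -0.58 in sh-JAML/HG over sh-NC/HG lay just short of 1.5-fold. Dnaja4 overlaps Wdr61, with which it shares 42.7% of its windows. Dnajb1, the main stress-inducible partner of Hsp70, hardly differed between libraries, at 164 CPM in sh-JAML/HG, 150 in sh-JAML, 155 in sh-NC/HG and 155 in sh-NC cells.

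Dnajb4, a DNAJB partner of cytosolic Hsp70, showed the opposite picture. It stood at 138 CPM in sh-JAML/HG, 140 in sh-JAML, 71.7 in sh-NC/HG and 144 in sh-NC cells, so that 1 library stood apart from the other 3. The sh-NC/HG value was 2.01-fold lower than that of sh-NC (95% counting interval 1.89 to 2.13), and sh-JAML/HG was 1.92-fold higher than sh-NC/HG (1.81 to 2.04). With the Jaml hairpin, the log2 glucose ratio was -0.02. Dnajb2, a ubiquitin-binding J protein known from neurons, followed the hairpin instead, at 42.6 CPM in sh-JAML/HG and 40.4 in sh-JAML, against 24.9 in sh-NC/HG and 28.0 in sh-NC cells. It was 1.71-fold higher in sh-JAML/HG than in sh-NC/HG (1.54 to 1.90), and its log2 ratio in sh-JAML over sh-NC was 0.53. Neither Dnajb4 nor Dnajb2 shared a 50-base window with another gene. Dnajb5 was lower with the Jaml hairpin in both glucose conditions, at 17.6 CPM in sh-JAML/HG and 17.7 in sh-JAML, against 22.0 in sh-NC/HG and 21.7 in sh-NC cells. Dnajb6, a suppressor of protein aggregation, and Dnajc7, which links Hsp70 to Hsp90, had log2 ratios of at most 0.21 in size in all 4 pairs.

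**Figure D3:**
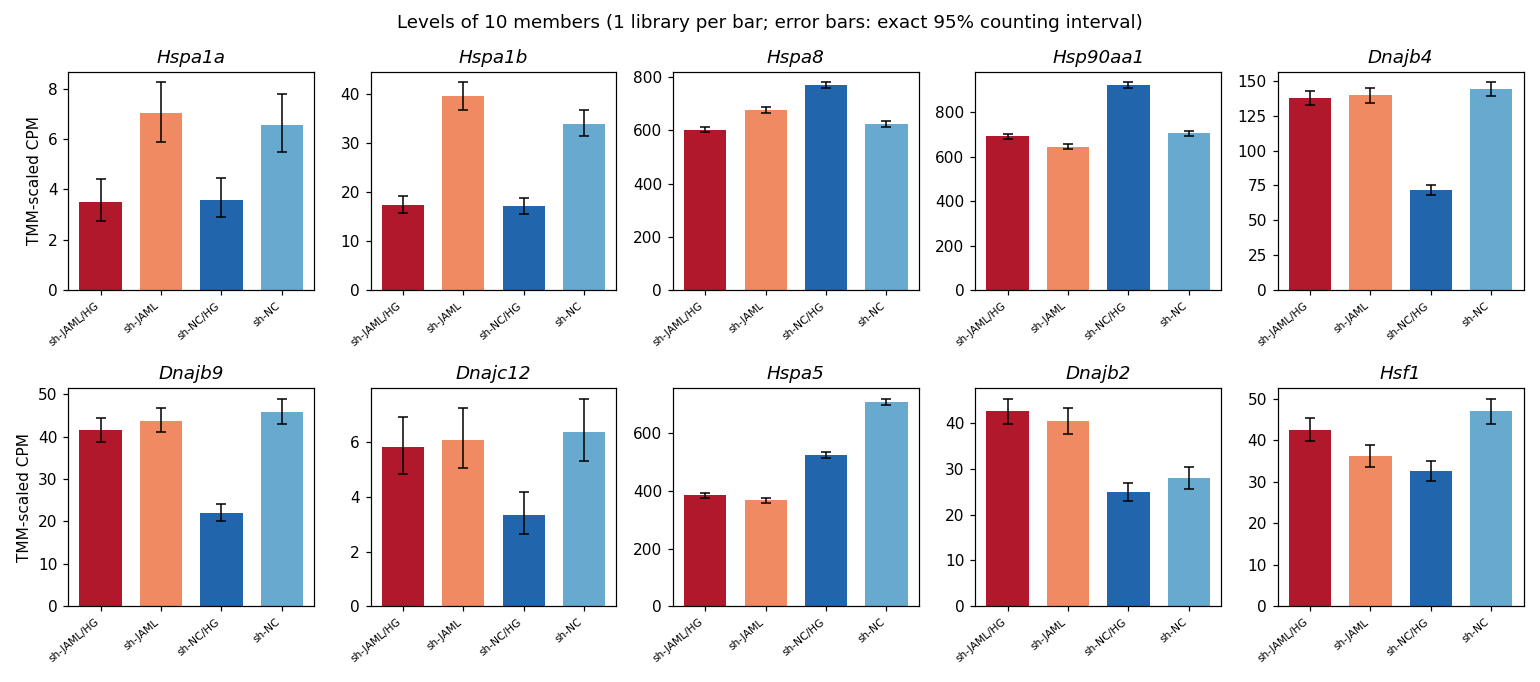
TMM-scaled CPM (y axis, from 0) of 10 members in each of the 4 libraries (x axis), with exact 95% counting intervals as error bars. Hspa1a and Hspa1b are low in both high glucose libraries, Dnajb4, Dnajb9 and Dnajc12 are low in sh-NC/HG cells, and Hspa5 is highest in sh-NC cells at 708 CPM.

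In the ER, the chaperone Hspa5 (BiP, GRP78) and its co-chaperone Dnajb9 (ERdj4) separated the libraries in different ways. Hspa5 is the ER Hsp70 that holds the stress sensors of the unfolded protein response inactive, and Dnajb9 recruits it to misfolded proteins and to the sensor IRE1. The windows before their starts are shown because both are textbook targets of the unfolded protein response, together with that of Dnajb4, which had a similar profile to Dnajb9. The sequences are from RefSeq (GRCm38.p6), at chr2:34771840-34772089 (plus strand), chr12:44210069-44210318 (minus strand) and chr3:152193846-152194095 (minus strand, 1 of the windows listed for Dnajb4). Capitals mark the ER stress element of Hspa5, whose parts CCAAT and CCACG are 9 bases apart, and the heat shock element pair TTCNNGAA of Dnajb4:
Hspa5: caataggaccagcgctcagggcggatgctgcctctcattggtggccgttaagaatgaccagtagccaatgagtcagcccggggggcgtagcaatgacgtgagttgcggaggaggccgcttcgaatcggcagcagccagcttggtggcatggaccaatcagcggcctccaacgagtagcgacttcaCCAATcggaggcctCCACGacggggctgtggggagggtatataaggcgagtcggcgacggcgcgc
Dnajb9: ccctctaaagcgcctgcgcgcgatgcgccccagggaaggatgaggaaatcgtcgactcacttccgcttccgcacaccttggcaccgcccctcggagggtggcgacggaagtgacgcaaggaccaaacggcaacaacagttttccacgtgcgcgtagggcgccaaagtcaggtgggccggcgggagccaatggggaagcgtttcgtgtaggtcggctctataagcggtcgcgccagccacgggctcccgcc
Dnajb4: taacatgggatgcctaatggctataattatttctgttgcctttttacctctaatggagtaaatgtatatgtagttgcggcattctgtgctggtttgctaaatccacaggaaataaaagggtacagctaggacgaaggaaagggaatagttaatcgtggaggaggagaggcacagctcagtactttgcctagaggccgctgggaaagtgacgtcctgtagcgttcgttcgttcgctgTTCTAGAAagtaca
The ER stress element of Hspa5 lay 65 to 47 bases before the start. The pair of Dnajb4 lay 14 to 7 bases before a start that is inside the annotated gene. The other Dnajb4 window, at the outer start of the gene (chr3:152210084-152210333), held 0 heat shock element pairs. None of these motifs was in the Dnajb9 window. Hspa5 stood at 384 CPM in sh-JAML/HG, 367 in sh-JAML, 524 in sh-NC/HG and 708 in sh-NC cells. The level was thus lower with the Jaml hairpin in both glucose conditions. Of all genes past the minimum, 51.9% were on the same side of 0 in both hairpin pairs. In sh-JAML cells Hspa5 was 1.93-fold lower than in sh-NC cells (95% counting interval 1.88 to 1.99), and in high glucose the log2 ratio of sh-JAML/HG over sh-NC/HG was -0.45. With the control hairpin, high glucose gave a log2 ratio of -0.44, and with the Jaml hairpin 0.07. The mesangial and fibroblast marker list was also highest in sh-NC cells. It summed to 1449 CPM in sh-JAML/HG, 1414 in sh-JAML, 1456 in sh-NC/HG and 2104 in sh-NC cells. Most of the sh-NC sum came from Acta2 (1071 CPM) and Tagln (866). Pdgfrb ranged from 126 to 146 CPM, Itga8 and Ren1 were at 0, and Des was highest in sh-NC/HG cells, at 2.32 CPM. The part of this list in the Hspa5 difference was not tested.

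Dnajb9 stood at 41.5 CPM in sh-JAML/HG, 43.8 in sh-JAML, 22.0 in sh-NC/HG and 45.9 in sh-NC cells, a low value in the sh-NC/HG library like that of Dnajb4. Against sh-NC cells, the sh-NC/HG level was 2.09-fold lower (1.87 to 2.33) , and sh-JAML/HG was 1.89-fold higher than sh-NC/HG (1.69 to 2.11). The mitochondrially encoded and histone mRNAs were lowest in the same library, with 10 of 13 and 10 of 11 genes past 1.5-fold in that direction in the control pair, and their part in these ratios was not tested. The other 5 members listed as targets of the unfolded protein response were Hsp90b1, Hspa13, Dnajb11 (ERdj3, which passes clients to Hspa5), Dnajc3 (an inhibitor of the kinase PERK) and Dnajc10 (ERdj5, a disulfide reductase). Dnajb11 stood at 88.6 CPM in sh-JAML/HG, 102 in sh-JAML, 111 in sh-NC/HG and 112 in sh-NC cells. Dnajc3 was at 126, 134, 149 and 141 CPM, and Dnajc10 at 293, 279, 271 and 308 CPM, in the same order. All 7 listed members had log2 ratios below 0 in sh-JAML over sh-NC, under each of the 3 scalings, with a median of -0.14, while 7040 of all 14187 genes were below 0 in that pair. Apart from Hspa5, the 6 others were between -0.18 and -0.07. Over all 13 ER members, 12 were below 0 in sh-JAML over sh-NC, or 11 when libraries were scaled by their totals alone. In sh-NC/HG over sh-NC 9 of the 13 were below 0, and in the pair with the Jaml hairpin 6. Among the membrane and luminal J proteins, Dnajb12 stood at 43.8 CPM in sh-JAML/HG, 59.0 in sh-JAML, 51.2 in sh-NC/HG and 58.3 in sh-NC cells, and Dnajc1 at 49.2, 37.5, 38.0 and 40.1 CPM in the same order, so the 2 departed in opposite directions in sh-JAML/HG cells.

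The mitochondrial members had log2 ratios of at most 0.33 in size. Hspa9 (mortalin), the matrix Hsp70 that pulls proteins in through the inner membrane, stood at 373 CPM in sh-JAML/HG, 359 in sh-JAML, 395 in sh-NC/HG and 384 in sh-NC cells. Hspd1 (Hsp60) stood at 188, 173, 180 and 197 CPM and its lid Hspe1 (Hsp10) at 81.1, 80.4, 69.5 and 80.8 CPM, in the same order. Of the 50-base transcript windows, 42.1% of those of Hspd1 and 22.8% of those of Hspe1 occur in other genes. Hspd1 and Hspe1 are neighbours transcribed in opposite directions on chromosome 1, and their annotated first exons overlap by 112 bases. Both were below 0 in sh-NC/HG over sh-NC (log2 -0.13 and -0.22), and above 0 in sh-JAML/HG over sh-JAML (0.12 and 0.01). Of the 9 mitochondrial members, including Dnaja3 (Tid1), the import motor component Dnajc19 and the cristae-associated Dnajc11, 0 reached 1.5-fold in any pair. In a list this short, 0 is near the shares of all genes, 8.96% lower and 10.0% higher in sh-NC/HG over sh-NC and between 3.57% and 9.86% either way in the other pairs. Their largest log2 ratio was for Dnajc30, in sh-JAML/HG over sh-NC/HG. Of the Dnajc30 windows, 24.0% are shared with Bud23. The median log2 ratio in sh-NC/HG over sh-NC was 0.01 for the 9 members and -0.74 for the 13 mitochondrially encoded mRNAs.

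The small heat shock proteins, ATP-independent holdases with an alpha-crystallin domain, were present at moderate levels. Hspb1 (Hsp25), which acts on actin filaments, was lower with the Jaml hairpin, at 47.6 CPM in sh-JAML/HG and 53.3 in sh-JAML, against 62.6 in sh-NC/HG and 62.3 in sh-NC cells. Of its windows, 48.8% are shared with the copy Hsp25-ps1. Hspb8, which works with Bag3 in selective autophagy of damaged proteins, stood at 31.1 CPM in sh-JAML/HG, 27.8 in sh-JAML, 22.6 in sh-NC/HG and 30.1 in sh-NC cells. Bag3 itself was at 81.9, 78.8, 56.0 and 81.5 CPM in the same order, lowest in the same library as Hspb8. Hspb6 (Hsp20) was highest in sh-JAML cells, at 12.6 CPM in sh-JAML/HG, 17.1 in sh-JAML, 12.8 in sh-NC/HG and 11.8 in sh-NC cells. Hspb2 had log2 ratios of at most 0.07 in size and shares 24.4% of its windows with its neighbour Cryab. Hspb11, which despite its symbol is a part of the ciliary transport machinery, was higher in high glucose with both hairpins, at 11.9 CPM in sh-JAML/HG, 9.25 in sh-JAML, 12.6 in sh-NC/HG and 9.87 in sh-NC cells (log2 0.36 and 0.35).

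Hsf1, the regulator, went opposite ways in the glucose pairs. Its level was 42.6 CPM in sh-JAML/HG, 36.2 in sh-JAML, 32.6 in sh-NC/HG and 47.0 in sh-NC cells. The log2 ratio was 0.24 in sh-JAML/HG over sh-JAML and -0.53 in sh-NC/HG over sh-NC, a difference of 0.76 that has a value and no test. Between the glucose pairs, 1490 of all 14187 genes differed by at least 1.5-fold in that direction and 1693 in the other. Of the 13 members listed as Hsf1-inducible, 2 were at least 1.5-fold lower in each glucose pair, Hspa1a and Hspa1b, and 0 were higher. Of all genes past the minimum, 4.18% were that much lower and 3.57% higher with the Jaml hairpin, and 8.96% and 10.0% with the control hairpin. Their median log2 ratio was -0.05 with the Jaml hairpin and 0.00 with the control hairpin. The letters GAANNTTC or TTCNNGAA, read on both strands with overlaps allowed, were in the 300-base promoter windows (250 bases before to 50 after the start) of 16 of the 58 members that had a window, or 27.6%, and of 17.0% of all genes with one. The ER stress element was in those of Dnajc3, Hsp90b1 and Hspa5, 5.17% of members, and of 0.137% of all genes. Such a match describes the letters in the window and is not a binding site.

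Apart from Hsf1, the nuclear, ribosomal and vesicle members differed little between libraries. Dnajc9, a histone chaperone, stood at 132 CPM in sh-JAML/HG, 125 in sh-JAML, 114 in sh-NC/HG and 113 in sh-NC cells. Dnajc2, which sits on the ribosome with Hspa14, was at 43.4, 43.4, 41.1 and 41.3 CPM in the same order. Dnajc8 and Dnajc17, both linked to splicing, and Dnajc21, a ribosome biogenesis factor, had log2 ratios of at most 0.25 in size. Dnajc21 was at 32.2 CPM in sh-JAML/HG, 27.4 in sh-JAML, 34.4 in sh-NC/HG and 31.0 in sh-NC cells. Dnajc5 (cysteine string protein) and Dnajc13, an endosomal J protein, had log2 ratios of at most 0.16 in size. Of the members with no compartment assigned, Dnajc12, a co-chaperone of the aromatic amino acid hydroxylases, had the profile of Dnajb4 and Dnajb9. It stood at 5.84 CPM in sh-JAML/HG, 6.08 in sh-JAML, 3.33 in sh-NC/HG and 6.40 in sh-NC cells, and the sh-NC/HG level was 1.92-fold lower than that of sh-NC (95% counting interval 1.43 to 2.57), and that of sh-JAML/HG 1.75-fold higher than that of sh-NC/HG (1.30 to 2.34). Dnajc28 stood at 6.63 CPM in sh-JAML/HG, 6.41 in sh-JAML, 8.66 in sh-NC/HG and 5.39 in sh-NC cells, and sh-NC/HG was 1.61-fold higher than sh-NC (1.27 to 2.05). Dnajc27 was at 9.71, 7.74, 8.06 and 9.34 CPM, and the Hsp70-like Hspa12b at 3.40, 2.90, 3.50 and 3.81 CPM, in the same order. Dnajc24 was at 11.3 CPM in sh-JAML/HG, 9.45 in sh-JAML, 8.79 in sh-NC/HG and 10.4 in sh-NC cells. Dnajc22 was rare, at 0.391 CPM in sh-JAML/HG, 0.275 in sh-JAML, 1.29 in sh-NC/HG and 0.680 in sh-NC cells. Its 3.30-fold lower level in sh-JAML/HG than in sh-NC/HG had an interval of 1.52 to 8.58, and its 2.48-fold lower level in sh-JAML than in sh-NC one of 0.850 to 7.47, which includes 1.

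Below the count minimum were 10 members. Dnajb13, Hspb3 and Dnajc5g had 0 counts in all 4 libraries, and Dnajb3, Dnajb8 and Dnajc6 (auxilin, a neuronal clathrin uncoating factor) did not exceed the floor of 3 fragments in any. Dnajb7 stood at 0.237 CPM in sh-JAML/HG, 0.437 in sh-JAML, 0.258 in sh-NC/HG and 0.164 in sh-NC cells. Dnajc5b was at 0.296, 0.175, 0.440 and 0.101 CPM, Hspb7 at 0.0355, 0.449, 0.0322 and 0, and Hspb9 at 0.142, 0.125, 0.622 and 0.0378 CPM in the same order. These 4 averaged under 50 count units, and their ratios are not given.

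In sh-NC/HG over sh-NC, 2 of the 63 members were higher by 1.5-fold or more and 5 were lower by as much, beside 10.0% and 8.96% of all genes past the minimum. The 2 higher ones were Dnajc28 (log2 0.68) and the rare Dnajc22 (0.91). The Dnajc22 counting intervals of these libraries overlapped, at 0.869 to 1.84 CPM in sh-NC/HG and 0.385 to 1.18 CPM in sh-NC cells. At 2-fold the counts were 0 higher and 2 lower (Dnajb9 and Dnajb4), beside 4.65% and 3.27% of all genes. The members' median log2 ratio was 0.02, and that of all genes 0.00. Besides the genes described above, Hsp90aa1, Hspb11 and Hspa14 were among the higher members, and Hsf1 and Hspa4l among the lower ones.

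In sh-JAML/HG over sh-JAML, 0 members were higher by 1.5-fold or more and 2 were lower by as much (Hspa1b and Hspa1a), beside 3.57% and 4.18% of all genes. At 2-fold, 0 were higher and 1 was lower, beside 1.31% and 1.56%. The median log2 ratio was 0.04. The 2 glucose pairs share no library. Across the 63 members, the log2 ratios of the pairs had a Pearson r of 0.43, and across all 14187 genes one of 0.06, given as a description, since genes of a library share its depth and composition. Without the read-sharing copies Hspa1a and Hspa1b, r across the members was 0.18. Members on the same side of 0 in both numbered 31 of 63, or 49.2%, beside 51.4% of all genes. Past 1.5-fold in both glucose pairs were 0 higher and 2 lower members, beside 1.19% and 0.853% of all genes.

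**Figure D4:**
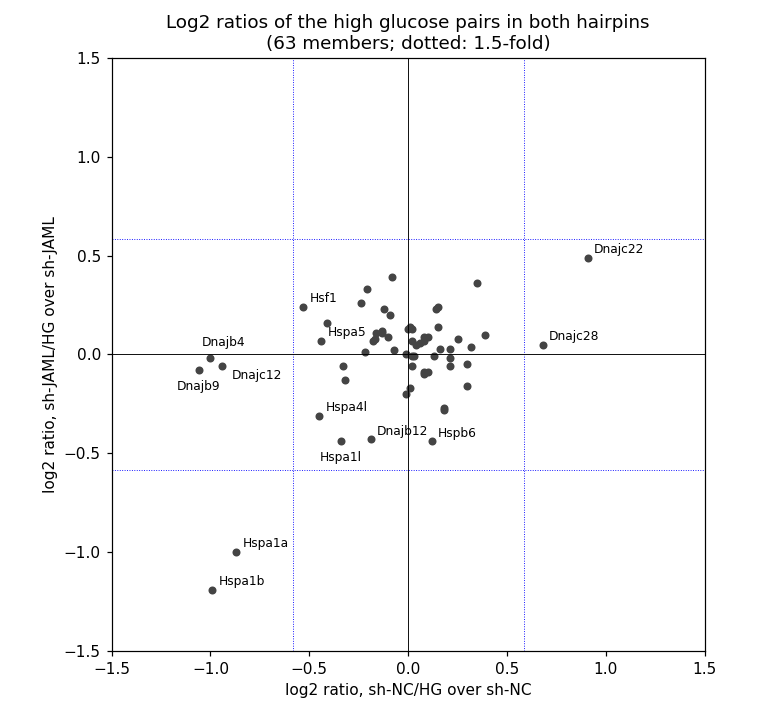
Log2 ratio of sh-NC/HG over sh-NC (x axis) against that of sh-JAML/HG over sh-JAML (y axis) for the 63 members, 1 point each. Hspa1a and Hspa1b lie past 1.5-fold (dotted) on both axes, whereas Dnajb4, Dnajb9 and Dnajc12 lie near -1 on the x axis and near 0 on the y axis.

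In sh-JAML over sh-NC, 0 members were higher by 1.5-fold or more and 2 were lower by as much (Hspa5 and Dnajc22), beside 4.12% and 3.90% of all genes. At 2-fold, 0 were higher and 1, the rare Dnajc22, was lower, beside 1.31% and 1.40%. The median was -0.06, with 23 members above 0 and 40 below, or 26 and 37 when scaled by library totals. The highest were Hspb6 and Dnajb2, each with a log2 ratio of 0.53, followed by Dnajc15, a mitochondrial import protein, with 0.28. In sh-JAML/HG over sh-NC/HG, 4 members were at least 1.5-fold higher (Dnajb4, Dnajb9, Dnajc12 and Dnajb2) and 1, Dnajc22, was lower, beside 8.35% and 9.86% of all genes. At 2-fold, 0 were higher and 1 was lower, beside 2.81% and 4.78%, and the median was -0.04. Past 1.5-fold in both hairpin pairs were 0 higher members and 1 lower one (Dnajc22), beside 0.789% and 1.19% of all genes.

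**Figure D5:**
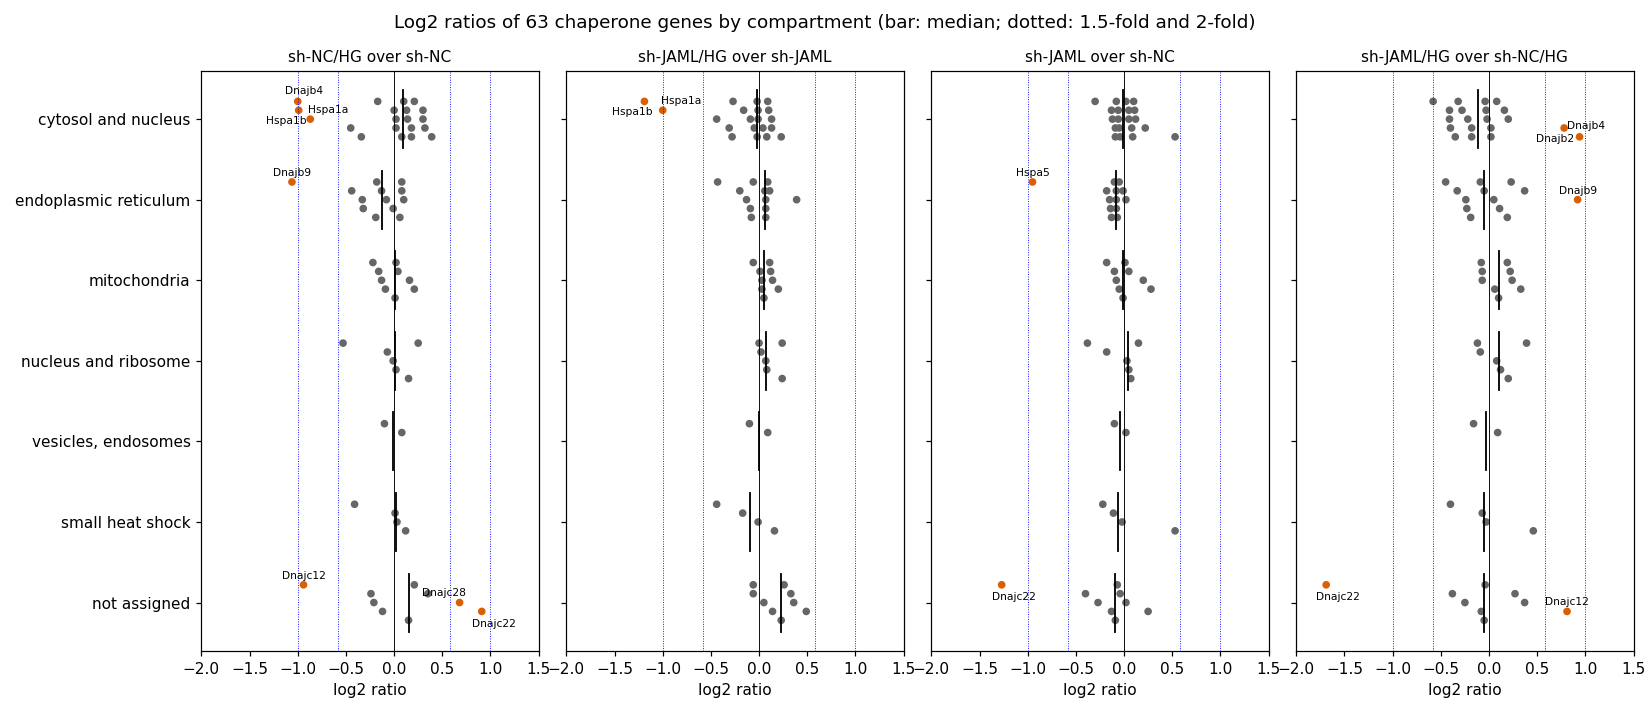
Log2 ratios (x axis) of the 63 members by compartment (rows) in the 4 pairs of libraries (panels), with the median of each compartment as a bar and members at least 1.5-fold apart in orange with their names. Most points lie within 1.5-fold (inner dotted lines), and the high glucose pair with the Jaml hairpin has only Hspa1b and Hspa1a outside it.

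An additive model of hairpin plus glucose, with 1 residual degree of freedom, was the only test the design allowed. With edgeR's quasi-likelihood test and Benjamini-Hochberg adjustment over all genes, 0 members were called for glucose, beside 0.00705% of all genes, and 0 for hairpin, beside 0% of all genes. At an unadjusted p under 0.05, the test had 3 members for glucose (Hspa1b, Hspa1a and Hspa4l, all lower) and 3 for hairpin (Dnajb2 higher, Hspa5 and Dnajc22 lower), 4.76% of the members each, beside 2.80% and 2.82% of all genes. Hspa1b had a log2 glucose change of -1.09 (SE 0.15, edgeR adjusted p = 0.813). The SE values in this paragraph were back-calculated from the log2 change and the F statistic, since the edgeR test reports none. Hspa5 had a log2 hairpin change of -0.70 (SE 0.16, edgeR adjusted p = 0.933) and Dnajb2 one of 0.65 (SE 0.14, edgeR adjusted p = 0.933). DESeq2 on the same model called 1 member for glucose, Hspa1b (DESeq2 adjusted p = 3.58e-04), beside 0.374% of all genes, and 0 for hairpin, beside 0.338%. Limma-voom called 0 for both. Dnajb4 and Dnajb9, which differed in 1 library, had edgeR log2 glucose changes of -0.51 (SE 0.28) and -0.57 (SE 0.28), since the hairpins disagreed.

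Chaperones outside these families were set beside the members, and their counts past 1.5-fold read against the shares of all genes given for each pair. Of 24 Hsp70 and Hsp90 co-chaperones without a J domain, 0 reached 1.5-fold in any of the 4 pairs. Stip1, which joins Hsp70 to Hsp90, had the highest log2 ratio of them in sh-NC/HG over sh-NC, 0.39, the same value as that of Hsp90aa1. Of the 14 subunits of TRiC and prefoldin, which fold actin and tubulin, 0 reached 1.5-fold, and 12 were above 0 in sh-NC/HG over sh-NC with a median of 0.08. Of 17 other ER chaperones and folding enzymes, Herpud1, a part of ER-associated degradation, followed Dnajb9, at 81.8 CPM in sh-JAML/HG, 82.8 in sh-JAML, 49.9 in sh-NC/HG and 95.2 in sh-NC cells. Txndc5, a disulfide isomerase, was low in sh-NC cells alone, at 368 CPM in sh-JAML/HG, 365 in sh-JAML, 356 in sh-NC/HG and 205 in sh-NC cells, the library in which Hspa5 was highest. Of 12 further mitochondrial chaperones and proteases, Htra2, a protease of the intermembrane space, was the one past 1.5-fold, with log2 ratios of -0.67 in sh-NC/HG over sh-NC and 0.62 in sh-JAML/HG over sh-NC/HG. Hsf2, the paralogue of Hsf1, was at 30.3 CPM in sh-JAML/HG, 32.5 in sh-JAML, 28.0 in sh-NC/HG and 33.3 in sh-NC cells.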

How the data were processed

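RNA was sequenced from 4 cultures, 1 library per group. Per the submitters' processing notes, CASAVA 1.8, TopHat2 2.0.6 and build mm10 were used, while tool, strand setting and annotation of the counting step are not given in the sources at hand. The deposited table holds estimated counts per Ensembl gene that the authors made without scaling between libraries. Values were whole numbers that piled up at multiples of 4, so intervals and floors used values divided by 4. Symbols, positions and exon lengths came from GENCODE M21, which matched 55394 of 56393 genes. Promoter windows came from RefSeq tables.

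Library scaling was by TMM in edgeR 4.0.16 (R 4.3.3), with a prior count of 1 in ratios and a minimum mean count of 50. The additive model was tested with edgeR, DESeq2 1.42.0 and limma 3.58.1 (voom). Exact intervals used Python 3.11.15 and scipy 1.17.1. With 1 library per group there is no replicate spread, and nothing tells biological from technical differences. Values in all libraries were given for 16 fixed members, the extremes of each pair (5 at either end) at a mean count of at least 100, and the highest and lowest of each family. Members, lists and the rule were chosen with earlier results of these data known. Alternatives were other scalings, count minimums, a prior count of 5, and leaving out Hspa1a and Hspa1b or members with 10% or more of exon bases shared.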

Additional observations from a re-analysis of the deposited data

Results flagged for a closer look

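Hsf1 was marked for a closer look because its log2 glucose ratio was above 0 with the Jaml hairpin (0.24) and below 0 with the control hairpin (-0.53). The difference of 0.76 rests on 1 library per group and was not tested. Differences of at least 1.5-fold in that direction were found for 1490 of all 14187 genes past the minimum, and in the other direction for 1693. Among the members, Dnajb4 (0.99), Dnajb9 (0.98) and Dnajc12 (0.88) had larger differences in that direction. Dnajc28 (-0.64) was the 1 member past 1.5-fold in the other.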

How the results depend on the processing

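No paired analysis was possible because each group had 1 library and the labels give no replicate numbers. Leaving out a library leaves the additive model no residual degree of freedom and was not run. Of the ratios of named members recomputed under other settings, 734 kept within their counting spread, 6 moved and 0 reversed. The 6 were under scaling by library totals, which shifted all genes by at most 0.04 on the log2 scale. Counts of members changed most with the count minimum. Without a minimum, members at least 1.5-fold higher numbered 7 in sh-NC/HG over sh-NC, 1 in sh-JAML/HG over sh-JAML and 6 in sh-JAML over sh-NC, and at least 2-fold higher 4 in the first of these and 5 in the last. Without it, members at least 1.5-fold lower numbered 6 in sh-JAML/HG over sh-JAML and 3 in sh-JAML/HG over sh-NC/HG, and at least 2-fold lower 4 and 3 in these pairs and 2 in sh-JAML over sh-NC. The added members averaged under 50 units. Without a minimum 28477 genes were tested, against 14187 at the minimum of 50 units. The shares of all genes given above are for the minimum of 50 units only. Counts at other minimums have no such share beside them and describe the processing, not the members. At a mean count of at least 500, sh-NC/HG over sh-NC had 1 higher and 3 lower at 1.5-fold and 1 lower at 2-fold. The same minimum left 1 lower at 1.5-fold in sh-JAML/HG over sh-JAML, 1 lower at 1.5-fold and 0 at 2-fold in sh-JAML over sh-NC, and 0 lower at 2-fold in sh-JAML/HG over sh-NC/HG. Without Hspa1a and Hspa1b, 3 members were lower by 1.5-fold or more in sh-NC/HG over sh-NC, and 0 were lower at 1.5-fold or at 2-fold in sh-JAML/HG over sh-JAML. With members sharing under 10% of exon bases, 1 was lower at 1.5-fold in sh-JAML/HG over sh-JAML. DESeq2 in place of edgeR called 1 member for glucose. The r of the glucose pairs across members was 0.18 without Hspa1a and Hspa1b, an alternative chosen after seeing the data.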
